A study of Mus musculus with 4 samples.

Results

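Cycling border macrophages were examined in cells peeled from the subdural meninges, the thin membranes that cover the cerebellum, in mice a few days old. They are macrophages of the brain border that also carried transcripts of dividing cells. A cell was taken as a macrophage when it held at least 10 UMIs (unique molecular identifiers, 1 per captured transcript) of the complement genes C1qa, C1qb and C1qc and the receptor gene Csf1r, and at least 4 UMIs of Mrc1 and Pf4. It was taken as cycling when at least 3 of the 6 genes Mki67, Top2a, Cenpf, Birc5, Ube2c and Hmmr were detected. Macrophages with at least 2 UMIs of the granule neuron genes Barhl1, Tlx3 and Neurod1 were dropped as doublets with granule cells. This left 298 members, called cycling macrophages below by this rule alone, of 2854 macrophages in all, with 101 in NdpWT replicate 1, 107 in NdpWT replicate 2, 46 in NdpKO replicate 1 and 44 in NdpKO replicate 2.

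Every mouse carried the Neurod2-SmoA1 transgene on 1 allele, in which the Neurod2 promoter drives an activated Smoothened in granule neurons, on a C57BL/6 background. NdpWT mice had wild-type Ndp, which encodes the secreted ligand norrin, and NdpKO mice lacked it. The labels give an age of 6 to 8 days after birth, and the protocol text 7 to 9 days. Each genotype had 2 libraries, each made from 5 pooled cerebella. Per the labels, runs of the genotypes were matched by litter, without saying which libraries form a match. Where 4 values are listed below, they follow the order NdpWT replicate 1, NdpWT replicate 2, NdpKO replicate 1, NdpKO replicate 2, called library order. The comparison of genotypes asks how the loss of norrin changes these cells, and the comparison of cycling with other macrophages asks what else sets the cycling cells apart.

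Border macrophages line the surface of the brain, its vessels and its membranes, where they take up debris, proteins and lipids through scavenger receptors. They are seeded early in development, express Mrc1, Lyve1, Cd163 and Pf4, and depend on the receptor Csf1r. A resident macrophage population can be enlarged by division of its own cells in the tissue. Division runs through S phase, when DNA and histones are made, and then through G2 and mitosis, when the chromosome and spindle genes used here reach their highest level.

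The promoters of these genes are shown because the members were chosen by the joint presence of their transcripts. Genes of G2 and mitosis commonly carry CCAAT boxes, bound by NF-Y, and the cell cycle homology region, with the core TTTGAA, bound by the DREAM complex. The 250 bases before the transcript start are given 5′ to 3′ from RefSeq (GRCm38.p6), all 6 genes matched, and capitals mark CCAAT and TTTGAA on either strand.
Mki67, chr7:135716380-135716629, minus strand: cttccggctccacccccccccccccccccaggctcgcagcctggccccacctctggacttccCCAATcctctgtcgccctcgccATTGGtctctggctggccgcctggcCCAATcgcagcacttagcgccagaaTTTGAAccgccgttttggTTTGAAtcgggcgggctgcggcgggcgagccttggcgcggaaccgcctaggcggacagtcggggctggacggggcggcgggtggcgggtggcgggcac
Top2a, chr11:99024190-99024439, minus strand: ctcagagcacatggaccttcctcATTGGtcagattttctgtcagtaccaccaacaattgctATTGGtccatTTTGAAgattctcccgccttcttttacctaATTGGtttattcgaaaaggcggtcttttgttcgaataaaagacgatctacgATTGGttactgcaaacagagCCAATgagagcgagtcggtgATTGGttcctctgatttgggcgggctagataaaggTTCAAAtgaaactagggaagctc
Ube2c, chr2:164769679-164769928, plus strand: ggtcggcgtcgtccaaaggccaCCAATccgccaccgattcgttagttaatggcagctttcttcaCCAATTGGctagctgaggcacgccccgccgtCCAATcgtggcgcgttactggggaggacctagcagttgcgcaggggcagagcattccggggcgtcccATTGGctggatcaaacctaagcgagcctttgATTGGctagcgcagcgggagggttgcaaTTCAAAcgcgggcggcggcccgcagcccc
Birc5, chr11:117848987-117849236, plus strand: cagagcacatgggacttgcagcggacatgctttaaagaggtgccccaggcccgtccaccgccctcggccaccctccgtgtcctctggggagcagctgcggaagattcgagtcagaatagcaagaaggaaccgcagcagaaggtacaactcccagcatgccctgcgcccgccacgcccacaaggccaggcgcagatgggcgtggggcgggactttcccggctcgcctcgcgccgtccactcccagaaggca
CCAAT was found 3 times in Mki67, 6 times in Top2a, 6 times in Ube2c, 5 times in Hmmr and 2 times in Cenpf, and 0 times in Birc5. A run that reads CCAATTGG in Ube2c counts on both strands. Of the 6 promoters, 5 held CCAAT and 3 held TTTGAA. In comparison, 33.8% and 16.0% of all 32851 promoters of this length held them. Among 32 promoters of the other G2/M genes the shares were 71.9% and 31.2%, and among 30 promoters of S phase genes 56.7% and 13.3%. The E2F words TTTGGCGC and TTTCCCGC, searched on both strands, were in 23.3% of the S phase promoters, in 1.3% of all promoters and in 0 of the 6. A match describes these letters and does not show that a factor binds there.

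Counts of the 6 genes split the macrophages unevenly rather than falling off steadily. Of all macrophages, 1012 had 0 of the genes detected, 1072 had 1, 472 had 2, 124 had 3, 53 had 4, 23 had 5 and 98 had all 6. Cells with all 6 thus outnumbered those with 5, and they made up a similar share of macrophages in each library. These shares were 3.18%, 3.92%, 3.46% and 3.14% in library order. Just outside the rule stood the 472 cells with 2 genes and just inside it the 124 with 3.

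**Figure D1:**
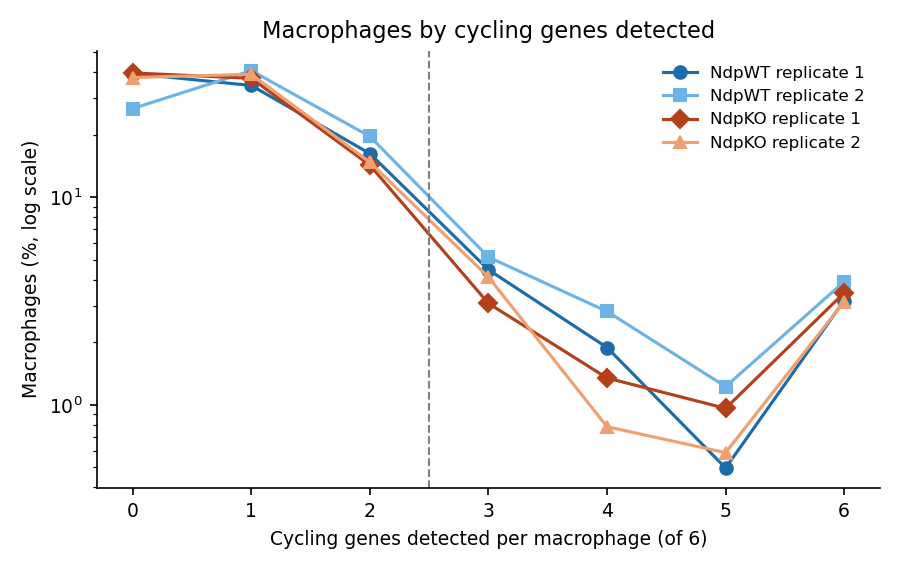
Share of macrophages (%, log scale) by the number of the 6 cycling genes detected, for each library; the dashed line marks the rule. The share falls from 1 gene to 5 genes in every library and is higher again at all 6.

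Genes of the cell cycle that the rule did not use differed between members with 3 and with 5 or 6 of its genes, and members with 4 lay between. Each cell was thinned to 4000 UMIs, which 288 of the 298 members and 2293 of the 2556 other macrophages reached. A list of 35 other G2/M genes then had a median of 2 UMIs per cell at 0 genes detected, 3 at 1, 2 at 2 and 3 at 3. The median was 6 at 4 genes, 22 at 5 and 39 at 6. The median of cells with 3 of the 6 genes thus lay at that of cells outside the rule, while the medians with 5 or 6 stood far above it. At least 10 UMIs of this list were found in 107 of 119 members with 5 or 6 genes, in 19 of 48 with 4, in 11 of 121 with 3 and in 12 of 2293 other macrophages. The S phase list of 30 genes had medians of 2, 4.5, 9 and 6 UMIs at 3, 4, 5 and 6 genes, against 2 in other macrophages. At least 10 UMIs of it were found in 16 of 121 members with 3 genes and in 41 of 2293 other macrophages, so some members with 3 genes carried these transcripts. Members with 5 or 6 genes were thus high in the G2/M list. Its genes move with those of the rule, so this is no independent test of the label of proliferating cells. For most members with 3 genes the data went against that label, since 82 of these 121 cells had under 5 UMIs of the G2/M list. Of other macrophages, 1921 of 2293 had under 5. Of all 288 thinned members, 133 had under 10 UMIs of both lists, so results over all members include many cells without a clear sign of division. A doublet score among the highest of the library was given to 52.1% of members with 5 or 6 genes and 7.04% of other macrophages. Among these members the share was 45.9%, 69.0%, 8.70% and 78.9% in library order, so the libraries differed widely. The part of such doublets in these levels was not tested.

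**Figure D2:**
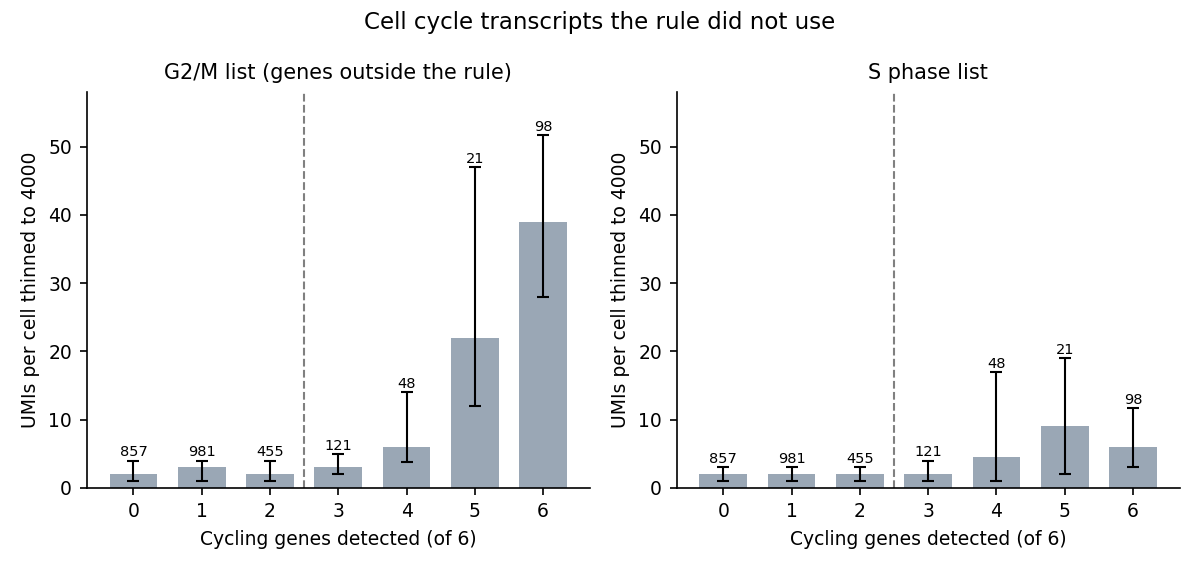
UMIs per cell, after thinning to 4000, of G2/M genes outside the rule (left) and of S phase genes (right), by cycling genes detected; bars are medians over all libraries, lines the quartiles and numbers the cells. The G2/M median is 2 or 3 up to 3 genes and 39 at 6 genes.

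Members were clearly macrophages of the border type. All 12 border markers were detected in the members of every library, and their summed level was 5298 to 6848 CPM (UMIs scaled to a common library total) against 6571 to 7452 CPM in other macrophages. Lyve1, the hyaluronan receptor, was at 2166, 1395, 1596 and 1175 CPM in the members of the 4 libraries, in library order. The transglutaminase subunit gene F13a1 was at 1486, 1264, 1610 and 1353 CPM. Markers of microglia, the macrophages inside brain tissue, were low: Sall1 was at 0 UMIs in 3 libraries and Tmem119 at under 9 CPM. P2ry12 and Gpr34, which are also known as microglial genes, were at 83.2 to 91.7 and 92.4 to 101.5 CPM. Of 6 dendritic markers, Flt3 and Cd209a were at 0 UMIs in the members of all 4 libraries, and the summed level was 5.6 to 13.9 CPM. The 6 monocyte markers summed to 29.9, 65.7, 83.2 and 272 CPM in library order, against 61.9, 50.5, 118 and 210 CPM in other macrophages. Both knockout libraries were the higher ones in each state. In the members, however, 1 cell held 25.5%, 62.2%, 39.6% and 52.6% of these UMIs in library order. Ccr2, the chemokine receptor of monocytes, was at 0, 26.3, 55.5 and 120 CPM in the members, while Chil3 was at 0 UMIs in all 4 libraries. Ndp itself had 1 UMI in the members of NdpWT replicate 1 and 0 in the other 3 libraries, so these cells do not serve to check the genotype.

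Depth and RNA of other cells also moved with membership. Members had a median of 15937, 12099, 31051.5 and 14813.5 UMIs in library order. Other macrophages had 10522.5, 8383.5, 16828.5 and 10082.5 UMIs, so members were deeper in each library. Haemoglobin exceeded 1% of UMIs in 8.05% of members and 4.58% of other macrophages. At least 5 UMIs of fibroblast, endothelial or mural markers were present in 50% of members and 42.3% of other macrophages. A doublet score among the highest of the library was given to 31.5% of members and 7.04% of other macrophages. By library it was given to 23.8%, 43.9%, 10.9% and 40.9% of members, in library order. Before granule doublets were dropped, 444 macrophages passed the rule. The drop took 33.1%, 24.6%, 39.5% and 41.3% of these, against 7.06% to 11.1% of other macrophages. The summed fibroblast markers were at 1011, 1028, 725 and 786 CPM in members and 972, 784, 1367 and 1014 CPM in other macrophages. In the members 1 cell held 44.7%, 14.7%, 60.1% and 42.4% of these UMIs in library order. The part of doublets and of free RNA in the results below was not tested beyond the subsets given beside each.

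Across the series the libraries held 114363848 to 125981161 UMIs, and 5696 to 12818 barcodes passed the filters. NdpKO replicate 1 stood apart: 44.1% of its barcodes passed, against 64.8% to 67.0% in the other 3 libraries, and its cells were the deepest. Any pair of libraries shared 15 to 48 passing barcodes, with 1 shared macrophage barcode in 1 pair and 0 in the others. UMI sums per gene over the members differed between every pair of libraries by more than independent draws of UMIs would give (chi-square over its degrees of freedom 4.17 to 7.42). The UMIs of 1 cell are not independent draws, so this ratio does not measure differences between libraries alone. The libraries were treated as 4 separate samples.

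Cycling macrophages were a lower share of macrophages in both knockout libraries than in both wild-type libraries, in a design too small for the test to pass. By the rule they were 10.0% (exact 95% binomial interval 8.24 to 12.1) and 13.1% (10.9 to 15.6) of macrophages in NdpWT replicates 1 and 2. In NdpKO replicates 1 and 2 they were 8.85% (6.55 to 11.6) and 8.63% (6.34 to 11.4). The interval of NdpWT replicate 1 overlapped those of both knockouts, and so did that of NdpWT replicate 2. The mean was 11.6% ± 2.17 (SD, n = 2) in wild type and 8.74% ± 0.155 (SD, n = 2) in knockout, a difference of −2.83 percentage points. The 2-sided exact permutation test gave p = 0.333, the smallest that 2 libraries against 2 allow. Without NdpWT replicate 2 the difference was −1.29 percentage points, and without NdpWT replicate 1 it was −4.36.

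With every cell at the same depth the shares were lower. At 4000 UMIs they were 4.86%, 7.43%, 4.45% and 4.78% in library order, or 6.15% ± 1.82 (SD, n = 2) in wild type and 4.62% ± 0.232 (SD, n = 2) in knockout. Both knockout libraries were again the lower ones. NdpWT replicate 1 lay within the intervals of both, and NdpWT replicate 2 lay above their upper limits of 6.80% and 7.15%. The difference was −1.53 percentage points (exact permutation p = 0.333) and −0.24 without NdpWT replicate 2. Without doublets by score the genotypes overlapped at this depth (3.23%, 4.04%, 3.75% and 1.20% in library order). With at least 5 of the 6 genes required, the shares at full depth were 3.67%, 5.14%, 4.42% and 3.73%, and the genotypes overlapped (difference −0.33 percentage points, exact permutation p = 1). Cells of types that should not divide are set beside such a share for comparison. Whether they carried these transcripts as their own, from free RNA or from doublets was not tested. Maturing granule neurons with 3 of the 6 genes were 10.1% to 12.4% of their type at median depths of 6937 to 12534 UMIs, and red cells 10.9% to 15.9% at 6241 to 18674 UMIs. Ube2c alone was detected in 49.9% to 62.4% of red cells. Oligodendrocytes, which were few, passed in 6 of 71, 3 of 23, 1 of 13 and 0 of 11 cells in library order, a lower share than the macrophages in each library, and 0 of 11 cells allows a share of up to 27.3%. In NdpWT replicate 2 the macrophages, at 13.1%, were above its granule neurons (12.4%) and red cells (12.9%), and in the other 3 libraries they were below both. The share with at least 3 of 6 genes is thus not read as the share in division. Thinned to 4000 UMIs, at least 5 of 6 genes were found in 1.78% to 3.65% of macrophages, 0% to 1.31% of red cells and 2.95% to 6.67% of maturing granule neurons.

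**Figure D3:**
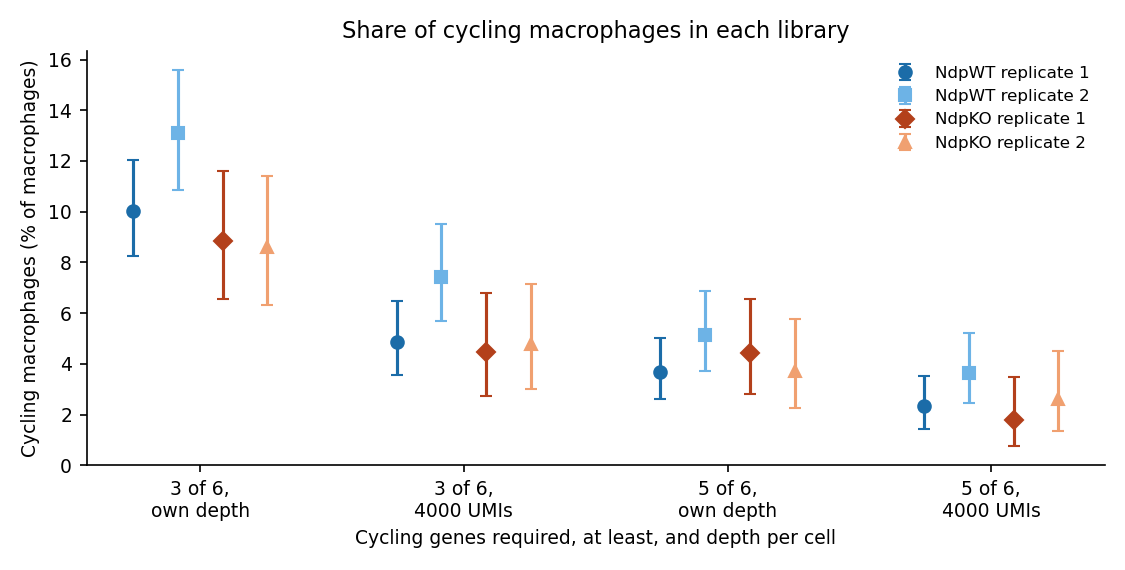
Share of macrophages that counted as cycling in each library, by the number of genes required and the depth per cell; points are shares and lines exact 95% binomial intervals, which cover counting error only. NdpWT replicate 2 is the highest library in all 4 settings.

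Cycling cells were found among the macrophages with Lyve1 and among those with neither Lyve1 nor MHC class II. At 4000 UMIs, macrophages with at least 2 Lyve1 UMIs were 81.4%, 77.3%, 67.3% and 63.0% of macrophages in library order. Of these, 39 of 737, 43 of 593, 10 of 302 and 11 of 290 were cycling, or 5.29%, 7.25%, 3.31% and 3.79%. Of the macrophages with neither, 5 of 160, 14 of 165, 10 of 138 and 9 of 137 were cycling. The cells with at least 10 UMIs of MHC class II genes, which present antigen, were few. They numbered 8, 9, 9 and 33, of which 0, 0, 0 and 2 were cycling. A count of 0 of 9 cells allows a share of up to 33.3%, so a lower share of dividing class II cells was not detectable at this depth. Class II minus Lyve1 cells differed by −3.40 percentage points ± 4.10 (SD, n = 4 libraries), with a 2-sided exact permutation p = 0.25, where 0.125 is the smallest that 4 pairs allow.

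Gene by gene, cycling macrophages were compared with other macrophages of the same library on summed UMIs, and the genes of the rule are given first, as a description with no test. Mki67, whose protein coats mitotic chromosomes, was at 593, 649, 448 and 802 CPM in the members of the 4 libraries, in library order, against 14.1 to 33.9 CPM in other macrophages. Top2a, the topoisomerase that untangles sister DNA, was at 524, 482, 472 and 594 CPM against 11.2 to 28.7 CPM. Cenpf, a centromere protein gene, reached 303, 375, 197 and 407 CPM, but also 39.7 to 60.6 CPM in other macrophages, the highest background of the 6. A Cenpf UMI was found in 28.8% to 33.8% of other macrophages, a Hmmr UMI in 1.32% to 2.96%. Birc5 (survivin), Ube2c (a ubiquitin enzyme of the anaphase-promoting complex) and Hmmr (a spindle-binding hyaluronan receptor) were at 226 to 346, 187 to 361 and 106 to 213 CPM in members. NdpKO replicate 1, the deepest library, had the lowest level of all 6 genes.

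Transcripts of S phase, mitosis and the replication histones were far higher in members, also by description only, since these genes move with the rule. The G2/M list had a median log2 change of 4.21 over 35 genes, from 0.45 for Pttg1 (securin) to 5.20 for Nusap1, a microtubule-binding spindle protein. Hmgb2, a chromatin protein, was the most abundant, at 1238 CPM on average in members against 222 CPM. The 30 S phase genes had a median of 2.05, and Pcna, the sliding clamp of DNA polymerase, stood at 283 against 123 CPM. The 47 histone genes tested had a median of 2.82, with the linker histone gene Hist1h1b at 406 against 30.4 CPM. Without doublets by score the medians were 3.72 for the G2/M list, 1.93 for the S phase list and 1.97 for 38 histone genes. Outside these lists the 10 genes with the largest rise, at 50 CPM or more, were all known from division or DNA repair. Neil3 (a DNA glycosylase), Aspm (spindle poles), Pimreg, Kif4, Ckap2l, Cdkn3, Kif15, Pbk, Esco2 (sister cohesion) and Dlgap5 had log2 changes of 4.50 to 5.79. Neil3 was at 37.1, 55.2, 54.7 and 68.3 CPM in the members of the 4 libraries, in library order, against 0.50 to 1.32 CPM in other macrophages. For each of the 10, the lowest library of members lay above the highest library of other macrophages.

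In the test over all 11944 genes (edgeR quasi-likelihood, library as a block, Benjamini-Hochberg adjustment), 1238 were higher (10.4%) and 954 lower (7.99%) in cycling macrophages. The counts over all genes, here and in the comparisons that follow, include the genes of the rule and the cell cycle lists that move with it. Members were also deeper, so a second comparison held depth constant. When each member was paired with the other macrophage nearest in depth in its library, 741 of 10250 genes were higher (7.23%) and 450 lower (4.39%), and 824 of the 2192 calls (18.4%) were among these 1191 (11.6%). For members with at least 5 of the 6 genes and matched depth, 795 of 8765 genes were higher (9.07%) and 564 lower (6.43%), 15.5% in all. Each group below is given against all other macrophages and then against depth-matched ones. The median log2 change over all genes was −0.02 and −0.0046 in these comparisons.

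Regulators of the entry into S phase changed in part. Of 20 genes for cyclins, their kinases and inhibitors, 9 rose and 0 fell (median log2 change 0.48), and with matched depth 8 of 18 rose and 0 fell (median 0.39). Cdk4, the kinase partner of D cyclins, was at 152, 135, 120 and 143 CPM in the members of the 4 libraries, in library order, and at 86.7, 82.6, 77.9 and 78.1 CPM in other macrophages. Its log2 change was 0.75 ± 0.08 (SE, edgeR adjusted p = 2.55e-07), and 0.52 with matched depth (adjusted p = 0.00203). The states did not overlap. Cdkn2c, an inhibitor of the same kinase, also rose, by 2.18 ± 0.13 (SE, edgeR adjusted p = 9.69e-10), with 62.1 to 115 CPM in members and 16.6 to 23.7 CPM in other macrophages. The cyclin genes Ccne1 and Ccne2, which act at the start of S phase, rose by 2.92 and 3.29 on the log2 scale. Genes of this list, and those of nucleotide synthesis below, can also move with the cell cycle genes of the rule. Their rises are thus no independent test of the label of proliferating cells. D cyclins did not pass the test: Ccnd1 was at 229 against 231 CPM and Ccnd2 at 54.4 against 55.9 CPM on average.

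Many genes of nucleotide synthesis and fewer of glycolysis were higher in members. Of 19 genes of both kinds, 13 rose and 1 fell (median log2 change 0.52), and 7 rose and 1 fell with matched depth (median 0.42). Tk1 (thymidine kinase), which is also in the S phase list that moves with the rule, had a log2 change of 4.74 ± 0.28 (SE). Dck (deoxycytidine kinase) rose by 1.22 and Paics, an enzyme of purine synthesis, by 0.72 ± 0.09 (SE). Paics was at 97.4, 97.6, 106 and 112 CPM in the members of the 4 libraries, in library order against 59.5 to 65.0 CPM, and rose with matched depth too (0.50, edgeR adjusted p = 0.00481). Among glycolytic genes, Gapdh (log2 change 0.38), Ldha (0.34), Tpi1 (0.41) and Pkm (0.27) rose against all other macrophages, but none of these 4 passed with matched depth (adjusted p = 0.0824 to 0.751). Pgk1, of the same pathway, rose in both comparisons (log2 change 0.52, and 0.43 with matched depth, adjusted p = 0.0104). Aldoa, which encodes aldolase, was the gene that fell, by 0.53 ± 0.08 on the log2 scale, and by 0.67 with matched depth (adjusted p = 0.000754).

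Border identity genes were kept, with a few lower. Of 20 genes, 10 fell and 0 rose against all other macrophages (median log2 change −0.21), but only 3 fell with matched depth (median −0.02). They include Ms4a7 and Cd209f, and the same 3 fell in members with at least 5 of the 6 genes and matched depth, where Wwp1 rose. Ms4a7, a membrane protein gene known from border macrophages, was at 426, 323, 449 and 440 CPM in the members of the 4 libraries, in library order. In other macrophages it was at 674, 592, 767 and 684 CPM, so the states did not overlap. It fell by 0.74 ± 0.06 on the log2 scale (edgeR adjusted p = 1.47e-09) and by 0.32 with matched depth (adjusted p = 0.0113). Cd209f, a C-type lectin gene, fell with matched depth only (log2 change −0.49, adjusted p = 0.00394, against −0.68 ± 0.20 and adjusted p = 0.14). Lyve1, Folr2 and Stab1 passed in neither comparison, with log2 changes of −0.13, 0.06 and 0.00 against all other macrophages. The transcription factor gene Maf fell by 0.30 ± 0.05 but had a log2 change of 0.06 with matched depth, and F13a1 changed sign likewise (−0.16 and 0.05).

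**Figure D4:**
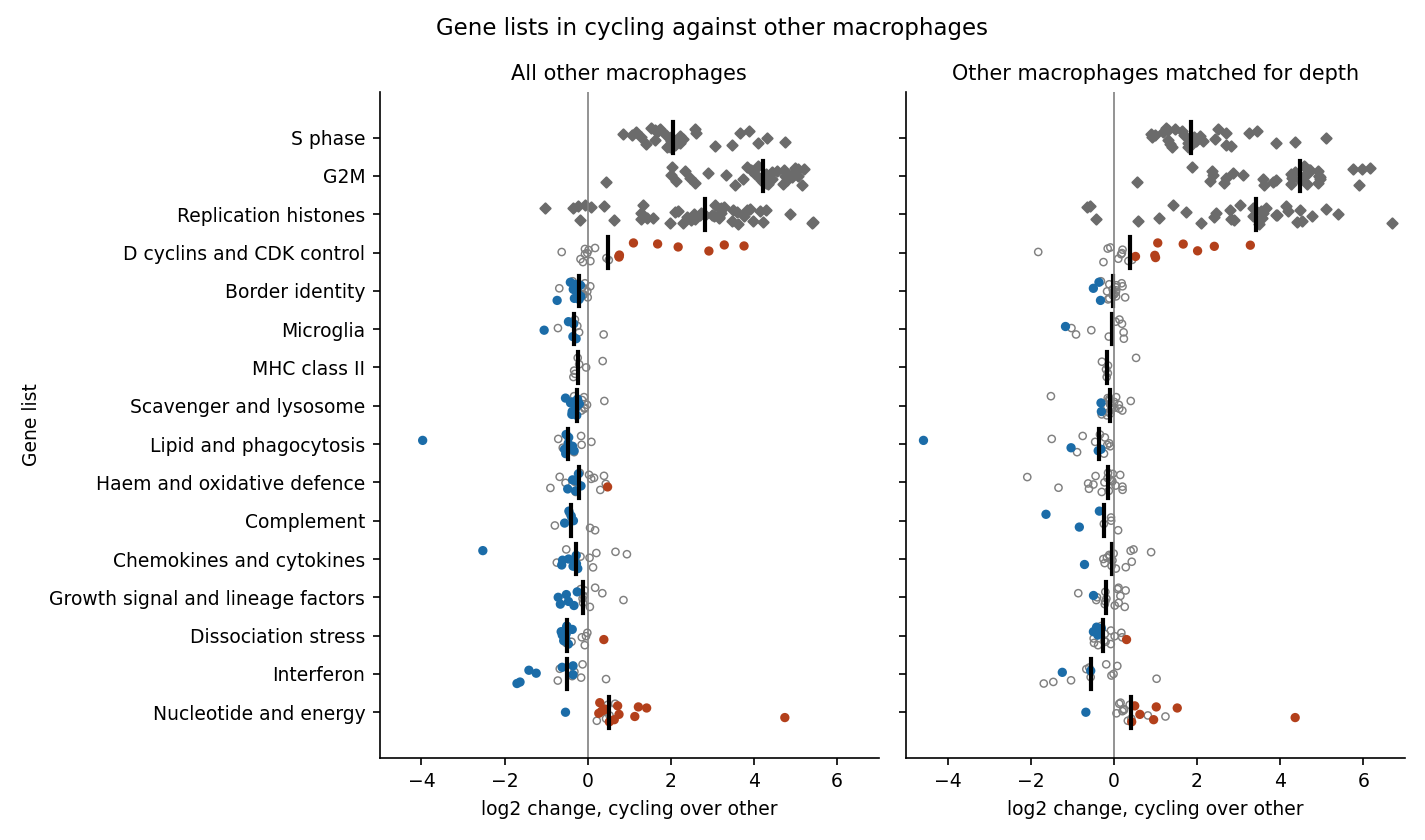
Log2 change of each listed gene in cycling against all other macrophages (left) and against other macrophages matched for depth (right); red and blue points passed the test upward and downward, open points did not, black bars are medians, and the top 3 lists are a description with no test. The medians of the border, microglia and scavenger lists move to near 0 with matched depth.

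Scavenger, lysosome and lipid genes were lower in members than in all other macrophages, and fewer of these falls passed with matched depth. Of 21 scavenger and lysosome genes, 13 fell and 0 rose (median log2 change −0.27), and 2 fell with matched depth (median −0.10), the cathepsin genes Ctsl and Ctsd. In members with at least 5 of the 6 genes and matched depth, 1 of the 21 fell and 1 rose (median −0.017). Ctsl was at 671, 587, 514 and 531 CPM in the members of the 4 libraries, in library order, against 702 to 817 CPM. It fell by 0.37 ± 0.05 and by 0.30 with matched depth (edgeR adjusted p = 0.0035). Of 14 genes of lipid handling and phagocytosis, 8 fell and 0 rose (median −0.46), and 4 fell with matched depth (median −0.36), Cd63, Igf1, Lpl and Gpnmb. Igf1, a growth factor, was at 238, 299, 362 and 430 CPM against 361, 399, 604 and 596 CPM, lower in all 4 libraries (log2 change −0.56 ± 0.06, and −0.31 with matched depth, adjusted p = 0.0188). Apoe, the most abundant of these, fell by 0.47 ± 0.05, from 21997 to 15922 CPM on average, but had −0.11 with matched depth (adjusted p = 0.599).

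Immediate early genes, which tissue dissociation is known to induce, were lower in members. Of 18 genes of that list, 11 fell and 1 rose (median log2 change −0.50), and 4 fell and 1 rose with matched depth (median −0.27). Jund was at 750, 466, 290 and 452 CPM in the members of the 4 libraries, in library order, against 1045, 724, 544 and 661 CPM. The levels differed more between libraries than between states, and members were lower within each library. Jund fell by 0.64 ± 0.06 and by 0.49 with matched depth (edgeR adjusted p = 0.000669). Junb, Jun and Atf3 fell in both comparisons, while the heat shock gene Hsp90aa1 rose in both (0.39 ± 0.06, and 0.30 with matched depth).

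Among complement genes 4 of 9 fell and 0 rose (median −0.40), and 3 of 7 with matched depth (median −0.24), among them Serping1 (log2 change −1.63) and C4b (−0.83). Of 17 chemokine and cytokine genes 9 fell and 0 rose, and 1 of 15 fell with matched depth (Ccl6, log2 change −0.72). Ccl2, which attracts monocytes, fell by 0.46 ± 0.05 and had −0.17 with matched depth (adjusted p = 0.441). Of 14 interferon genes 7 fell and 0 rose (median −0.49), and 2 of 13 with matched depth, Irf7 and Ifitm3. Haem and oxidative defence genes gave 1 rise (Txnrd1) and 6 falls of 20, and 0 of 19 passed with matched depth (edgeR, with 3 at an unadjusted p under 0.05). Of 15 growth signal and lineage factors 6 fell and 0 rose, and 1 with matched depth, Klf4 (log2 change −0.51 in both). MHC class II genes gave 0 calls of 7 in edgeR, with 0 at an unadjusted p under 0.05. Microglial genes gave 5 falls of 10, and 1 with matched depth (Olfml3). In members with at least 5 of the 6 genes and matched depth, 5 further genes of these lists rose by edgeR: Cd68 (log2 change 0.42), Spi1 (0.52), Cxcl2 (0.75), Ccl4 (1.03) and the class II gene H2-DMa (1.52).

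The 15 genes that fell most at 50 CPM or more, outside the rule and the cell cycle lists, had log2 changes of −1.21 to −0.69 and were lower in all 4 libraries. With matched depth 6 of them passed, and 5 passed both there and in members with at least 5 genes and matched depth: Kdm5b, Slfn5, Cd209g, Ms4a7 and Ccpg1. Against all other macrophages, Kdm5b did not pass without doublets by score. Cd209g did not pass without cells carrying haemoglobin or other cell markers, and Ccpg1 did not pass at 4000 UMIs. Kdm5b encodes a demethylase of histone H3 lysine 4 (chromosome 1, 134560171 to 134635285, plus strand, GRCm38). It was at 22.6, 29.1, 10.5 and 30.1 CPM in the members of the 4 libraries, in library order, against 48.9, 58.9, 48.9 and 47.9 CPM. It fell by 1.21 ± 0.18 and by 1.47 with matched depth. Cd209g, a C-type lectin gene on chromosome 8 (4134098 to 4137707, plus strand), was at 61.4, 41.0, 33.7 and 60.1 CPM against 111, 91.3, 107 and 139 CPM. It fell by 1.18 ± 0.11 and by 0.97 with matched depth (edgeR adjusted p = 0.00936). The near-identical lectin genes of that family can share tags, so its level is uncertain. Pla2g7, a secreted phospholipase gene, fell by 1.02 ± 0.08 and by 0.56 with matched depth (adjusted p = 0.00597), but did not pass in the members with at least 5 genes (adjusted p = 0.166). Tslp, Rapsn, N4bp2l1, Cebpa, Clec4n, Ptpre, Epb41l4aos, Pou2f2 and Pnpla7 did not pass with matched depth, but Tslp (adjusted p = 0.0166) and Cebpa (adjusted p = 0.0203) passed in the members with at least 5 genes and matched depth.

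Between genotypes, few genes differed within the cycling macrophages. Of 9391 genes, 1 was higher in knockout (0.0106%) and 2 were lower (0.0213%), 0.0319% in all, by edgeR, with 511 at an unadjusted p under 0.05. In bulk sums of this kind, fewer cells with a transcript and less of it per cell cannot be told apart. Ly6e, a GPI-anchored protein gene that interferon induces (chromosome 15, 74955051 to 74959905, plus strand), was at 251 and 294 CPM in the members of NdpWT replicates 1 and 2. In NdpKO replicates 1 and 2 it was at 582 and 635 CPM, so the genotypes did not overlap (log2 change 1.16 ± 0.17, edgeR adjusted p = 0.0379). In other macrophages the wild-type libraries had 266 and 272 CPM and the knockout libraries 430 and 462 CPM (0.73 ± 0.14, adjusted p = 0.128). The test of the difference between the states gave 0.46 ± 0.11 (adjusted p = 0.156). Without NdpWT replicate 1 the call in members was lost (log2 change 1.04, edgeR adjusted p = 0.34).

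Cxadr, a cell adhesion receptor gene, and Mfap5, a microfibril gene of fibroblasts, were the lower genes. Cxadr had 33.1 and 39.0 CPM in the wild-type libraries against 4.56 and 2.75 CPM in the knockouts (log2 change −3.18 ± 0.43, edgeR adjusted p = 0.0265). Mfap5 was at 19.9 and 36.0 CPM against 0.76 and 2.75 CPM (−4.12 ± 0.63, adjusted p = 0.0406). With DESeq2 neither passed (adjusted p = 0.0609 and 0.152). Cxadr also did not pass with at least 4 of 6 genes (edgeR adjusted p = 0.783) or without doublets by score (adjusted p = 0.0747), and Mfap5 not without NdpWT replicate 2 (adjusted p = 0.134). Both are low. The fibroblast marker sums of the members were lower in the knockout libraries too (725 and 786 against 1011 and 1028 CPM), and a link was not tested. In these sums 1 cell held 44.7%, 14.7%, 60.1% and 42.4% of the UMIs in library order. Without cells that held haemoglobin or at least 5 UMIs of fibroblast, endothelial or mural markers, 0 genes were called by edgeR (291 at an unadjusted p under 0.05), and likewise 0 in members with at least 5 of 6 genes (342). Leaving out NdpKO replicate 2 gave 116 calls, NdpKO replicate 1 gave 26 and NdpWT replicate 2 gave 12, so the count rests on single libraries.

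The haem genes Hmox1 (haem oxygenase), Slc48a1 (a lysosomal haem exporter) and Slc40a1 (the iron exporter ferroportin) were higher on average in knockout, without passing the test in the members. Hmox1 was at 222 and 518 CPM in the members of NdpWT replicates 1 and 2 and 943 and 430 CPM in NdpKO replicates 1 and 2, so the genotypes overlapped (0.91 ± 0.75, edgeR adjusted p = 0.997). In other macrophages it was at 316 and 502 CPM against 1266 and 960 CPM, with no overlap (1.45 ± 0.24, adjusted p = 0.138). Slc48a1 was at 41.4, 65.0, 134 and 60.4 CPM in the members (0.94 ± 0.43, adjusted p = 0.956). Slc40a1 was at 266, 395, 639 and 439 CPM (0.71 ± 0.24, adjusted p = 0.772), the only one of the 3 without overlap. The test of the difference between states passed for none of them (adjusted p = 0.476 to 0.991). NdpKO replicate 1 had the highest value of each. Without it the log2 changes were 0.24 for Hmox1, 0.22 for Slc48a1 and 0.43 for Slc40a1, and without NdpWT replicate 1 they were 0.41, 0.62 and 0.45. Without NdpWT replicate 2 that of Hmox1 was 1.64. Without NdpKO replicate 2 Slc48a1 (1.36, edgeR adjusted p = 0.00056) and Slc40a1 (0.95, adjusted p = 0.0176) passed, and Hmox1 was at 1.36.

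**Figure D5:**
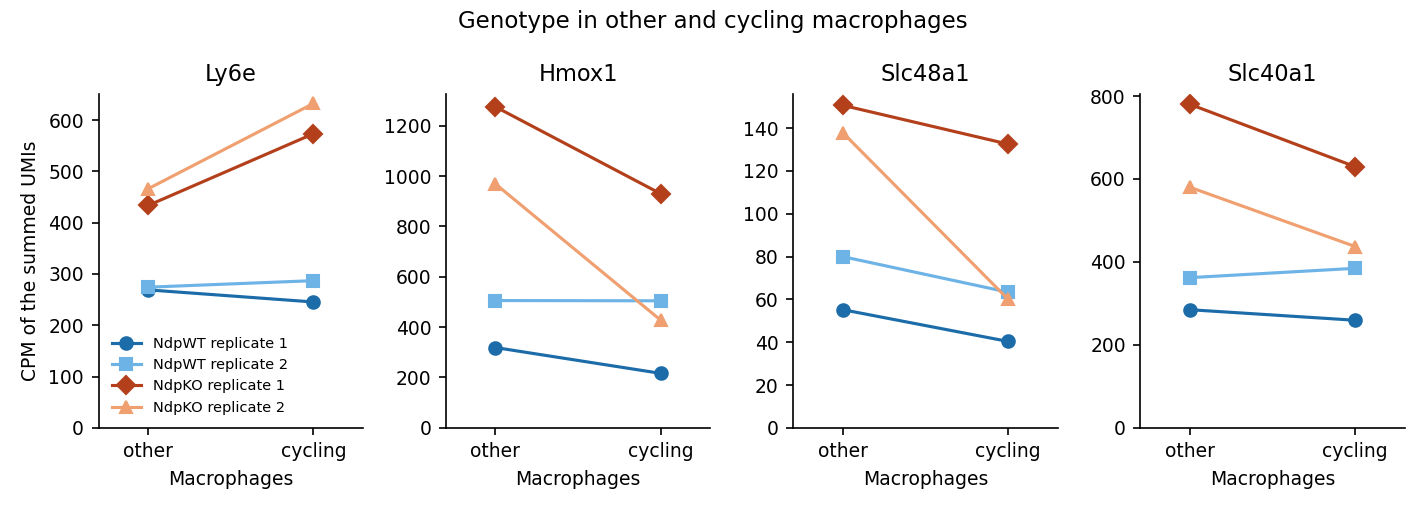
Level (CPM of the summed UMIs) of Ly6e and 3 haem and iron genes in other and cycling macrophages, 1 line per library. Ly6e separates the genotypes in both states, whereas Hmox1 and Slc48a1 overlap between genotypes in cycling macrophages.

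No gene of the lists passed with genotype in the members: of 30 S phase genes, 35 G2/M genes and 20 border identity genes, 0 passed in edgeR, with 2, 1 and 0 at an unadjusted p under 0.05, and median log2 changes were 0.22, 0.09 and 0.05. The 6 MHC class II genes tested had a median of 3.00, all 6 higher in knockout and 0 passing, beside the 2 cycling class II cells of NdpKO replicate 2. The rise was not particular to members, since in other macrophages all 8 class II genes tested were higher in knockout (median 1.51, 0 passing). In other macrophages 3 of 12585 genes were called (0.0238%), with Marco and Mgst1 higher (0.0159%) and Tfrc lower (0.00795%) in knockout.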

How the data were processed

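UMI counts per gene and barcode were deposited by the authors in 1 matrix per library, not normalised, and made with Cell Ranger 6.1.2 on mm10, per the submitters' processing notes. Free RNA was not corrected. Barcodes were kept from 500 genes and 1000 UMIs upward, with mitochondrial UMIs up to 10%. The members and gene lists were chosen with earlier results of these data known. No doublet caller was used in the main analysis. Scrublet (scanpy 1.11.5) served as an alternative: its automatic threshold made 0 calls in NdpKO replicate 1, so the expected share of barcodes (0.8% per 1000) with the highest scores was left out instead, a choice made after seeing the data.

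UMIs were summed per library and state. States were compared by edgeR 4.0.16 (quasi-likelihood, robust, TMM, filterByExpr with a minimum count of 10, library as block), and genotypes without a block, in R 4.3.3, with Benjamini-Hochberg adjustment over all genes and a threshold of 0.05. The difference of the genotype effect between states was an interaction in a fit with library as block. DESeq2 1.42.0 was an alternative. Standard errors follow from the quasi-likelihood F. CPM in gene tests use TMM factors, and marker sums and genes of the rule plain totals. Fits were tested on simulated data. Thinning drew 4000 UMIs per cell without replacement. Text names the 10 rises and 15 falls with the largest change between states (past the threshold, same sign in 4 libraries, at least 50 CPM in the higher state), all genotype calls if at most 10, otherwise those of at least 50 CPM, 3 haem genes, Ndp and the most abundant members of each list. Positions are from GENCODE M21 (GRCm38), where 32235 of 32285 features matched. Each library is a separate pool of animals, so p-values between genotypes measure the spread between pools. Those between states and of the interaction measure how the difference within a library varies from pool to pool. Some genes picked by these rules are not reported here.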

Additional observations from a re-analysis of the deposited data

Results flagged for a closer look

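The change with genotype differed between cycling and other macrophages in 26 of 11944 genes (0.218%), all 26 lower in the knockout members than the change in other macrophages would give, by the edgeR interaction test at an adjusted p under 0.05 (734 genes at an unadjusted p under 0.05). They include genes known from leptomeningeal fibroblasts, such as Mfap5, Aldh1a2 and Slc6a13. In 25 of the 26 both knockout sums of members lay under both knockout sums of other macrophages, and in 20 of them both wild-type sums of members lay over those of other macrophages.

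Of such genes at 50 CPM or more, 8 are given here. Slc7a11, the cystine transporter gene, had an interaction of −2.00 ± 0.31 (SE, edgeR adjusted p = 0.0143). It was at 47.9 and 49.9 CPM in the wild-type members and 27.0 and 9.56 CPM in the knockout members, against 44.6, 47.2, 74.9 and 76.2 CPM in other macrophages. The interaction was −1.89 for Aldh1a2 (a retinoic acid enzyme), −1.40 for Fstl1, −1.31 for Plpp3, −1.06 for Igf2, −1.04 for Slc6a13 and −0.86 for Igfbp2. It was −0.99 for Cxcl1, a chemokine gene.

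The fibroblast marker sums moved in the same pattern, with 1011, 1028, 725 and 786 CPM in members and 972, 784, 1367 and 1014 CPM in other macrophages, in library order. In the members, however, 1 cell held 14.7% to 60.1% of these UMIs. The part of fibroblast RNA in these 8 results was not tested apart from the subsets of cells. In members with at least 5 of 6 genes edgeR called 0 genes (556 at an unadjusted p under 0.05), and without cells carrying haemoglobin or at least 5 UMIs of other cell markers 4 genes, 1 of them among the 26.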

How the results depend on the processing

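The mean share of cycling macrophages was lower in knockout under all 14 alternatives at full depth and all 16 at equal depth, from −6.24 to −0.33 and from −4.52 to −0.24 percentage points. With 2 libraries against 2 the exact test cannot pass, so this says nothing of stability. Single libraries of the genotypes overlapped in several of these settings. With at least 4 of 6 genes at full depth, NdpWT replicate 1 had 5.56% and NdpKO replicate 1 had 5.77%. Without doublets by score at equal depth they had 3.23% and 3.75%. Class II cells were too few in 3 libraries for a share. The difference in the share cycling between class II and Lyve1 cells stayed below 0 under its 6 alternatives.

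Calls between states numbered 2192, and 1267 with DESeq2, 874 without doublets by score, 1103 without cells carrying haemoglobin or other cell markers, 1191 with matched depth, 1359 with at least 5 genes and matched depth, and 936 at 4000 UMIs, and leaving out a library gave 1478 to 1852. With at least 5 genes at full depth there were 2298, of which 1864 were among the 2192. With matched depth 6 genes turned sign without passing: Maf (0.056), F13a1 (0.052), Fcrls (0.20), Ctsc (0.0080), Trf (0.041) and Ifi204 (0.083). With at least 5 genes and matched depth so did Maf (0.10), Fcrls (0.28), Ctsb (0.016), Ccl3 (0.27), Bst2 (0.084) and Ifi204 (0.079), and at 4000 UMIs Trf (0.0053). The cause was not tested, beyond fewer cells and genes.

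Genotype calls in members numbered 3, and 1 with DESeq2, 87 with no filter on low counts, 1 with no UMI of Atoh1, Barhl1, Tlx3 or Neurod1, 35 without doublets by score, 0 with at least 5 genes, 0 without haemoglobin or other cell markers and 1 at 4000 UMIs. Leaving out a library gave 4 to 116. Ly6e stayed higher in knockout under all 13 alternatives (log2 change 0.99 to 1.33) and passed in 7, DESeq2 included. It did not pass with at least 4 or 5 genes, without granule UMIs, without haemoglobin or other cell markers, at 4000 UMIs or without NdpWT replicate 1 (adjusted p = 0.105 to 0.711).

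Genotype calls in other macrophages numbered 3, and in the same order of settings 23, 222, 18, 30, not run, 31 and 10, and 3 to 67 without a library. The interaction calls numbered 26, and 10, 132, 2, 107, 0, 4 and 1, and 13 to 131 without a library. Slc6a13 turned to 0.19 without granule UMIs and to 0.14 without other cell markers, where Plpp3 turned to 0.18.

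The labels match runs by litter without tying the match to replicate numbers, and libraries with the same number did not deviate together (correlation 0.058 over 3255 genes), so the numbers were not used to pair samples. With the replicate number as a block, 4 genes were called in members (1 shared with the 3; Cxadr and Mfap5 had an adjusted p = 0.0664), and 346 in other macrophages. The share difference with this block had an exact permutation p = 0.5, the smallest that 2 pairs allow. The alternatives with at least 5 genes, without other cell markers, without Ube2c, with granule doublets kept, and at 4000 UMIs for states, other macrophages and interaction were chosen after seeing the data.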
